A study of Mus musculus with 32 samples.

Results

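The transition described here is that of H2AK119ub, the ubiquitinated form of histone H2A, between non-growing oocytes at postnatal day 6 (P6) and growing oocytes at P7 of wild-type (WT) mice. The 4 samples, 2 per stage, were chosen by mark, genotype and stage from the 32 samples of the series, and the authors deposited 1 peak list per stage. The WT P6 list held 61349 peaks on the autosomes and X and the WT P7 list 80777. The mark was profiled by CUT&Tag, in which an antibody leads a transposase to chromatin that carries a mark, so that the DNA beside it is cut and tagged for sequencing. The oocytes came from ovaries, and Drosophila S2 cells had been added to every reaction as a spike-in. Lists set beside these were WT H2AK119ub at embryonic stage E18.5, before birth, and at P1, WT H3K27me3 at P6 and P7, and H2AK119ub at P6 in PRC2ctrl (EedF/+; Ddx4-Cre) and PRC2cKO (EedF/-; Ddx4-Cre) oocytes. Ddx4-Cre is a recombinase driven in germ cells, and Eed is a core subunit of Polycomb repressive complex 2 (PRC2). The PRC2ctrl oocytes carried Cre and 1 floxed Eed allele and are therefore not a repeat of the WT P6 group.

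H2AK119ub is set by Polycomb repressive complex 1 (PRC1), whose catalytic subunits are Ring1 and Rnf2, and is removed by the deubiquitinase Bap1 with its partners. H3K27me3, trimethylated lysine 27 of histone H3, is set by PRC2, and each complex can be recruited through the mark of the other. In mouse oocytes Polycomb marks lie over developmental genes and also spread into wide domains between genes, and some regions pass H3K27me3 to the embryo as a maternal imprint. Primordial follicles hold non-growing oocytes, and growth begins when a follicle is activated and the oocyte starts to fill with maternal RNA and protein.

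Because there was 1 list per stage, no difference between P6 and P7 has a replicate check, and no test was made. Intervals are exact Clopper-Pearson 95% intervals, which cover counting error only, and neighbouring peaks and genes are not independent. Signals are the authors' values, summed over a peak or at its highest point, and are compared only by rank within a list, written as a percentile that runs up to 100 for the highest. The lowest value that a highest point took was 7 in the P6 list, 4 in the PRC2ctrl list and 2 in the P7 list. The scaling of these values and read depth are unknown, so a peak that is absent from a list is a region not called there, which cannot be told apart from a lower mark, fewer reads or another threshold. A gene counted as marked where at least 1 base within 1 kb of either annotated end lay in a peak. It kept the mark when it was marked at both stages, lost it when marked at P6 alone and gained it when marked at P7 alone.

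The promoters of 6 genes show the kinds of sequence behind these calls. They were taken from the RefSeq promoter table of GRCm38.p6 and run from 250 bases before the start of transcription to 50 bases after it, 5′ to 3′ on the gene's strand, with each CG dinucleotide in capitals. Emx1 (chr6:85187681-85187980, + strand, 37 CG), a forebrain homeobox gene, and Stra8 (chr6:34920698-34920997, + strand, 10 CG), the gatekeeper of meiotic entry, lay in H2AK119ub peaks at both stages. Ddx4 (chr13:112652261-112652560, - strand, 38 CG), a germ cell RNA helicase, and H1f8 (chr6:115944681-115944980, + strand, 5 CG), the oocyte linker histone, lay in a peak at P6 and in none at P7. Cdkn1b (chr6:134920151-134920450, + strand, 30 CG), which encodes the cell cycle inhibitor p27, and Rbbp4 (chr4:129335321-129335620, - strand, 39 CG), a histone-binding subunit of PRC2, lay in a peak at P7 alone. CG reads the same on both strands, and 95.4% of all 21263 promoters of the table hold at least 1.
Emx1: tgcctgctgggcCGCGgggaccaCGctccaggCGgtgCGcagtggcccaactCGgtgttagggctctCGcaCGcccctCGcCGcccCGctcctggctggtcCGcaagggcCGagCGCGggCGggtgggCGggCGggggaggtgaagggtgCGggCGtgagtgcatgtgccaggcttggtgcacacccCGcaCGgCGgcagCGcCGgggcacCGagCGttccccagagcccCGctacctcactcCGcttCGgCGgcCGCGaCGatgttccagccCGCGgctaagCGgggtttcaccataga
Stra8: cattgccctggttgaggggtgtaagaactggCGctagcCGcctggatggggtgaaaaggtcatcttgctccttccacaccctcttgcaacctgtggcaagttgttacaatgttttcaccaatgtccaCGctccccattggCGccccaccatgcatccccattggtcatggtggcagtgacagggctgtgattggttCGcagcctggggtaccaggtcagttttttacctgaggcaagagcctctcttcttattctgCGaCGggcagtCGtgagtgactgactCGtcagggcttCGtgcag
Ddx4: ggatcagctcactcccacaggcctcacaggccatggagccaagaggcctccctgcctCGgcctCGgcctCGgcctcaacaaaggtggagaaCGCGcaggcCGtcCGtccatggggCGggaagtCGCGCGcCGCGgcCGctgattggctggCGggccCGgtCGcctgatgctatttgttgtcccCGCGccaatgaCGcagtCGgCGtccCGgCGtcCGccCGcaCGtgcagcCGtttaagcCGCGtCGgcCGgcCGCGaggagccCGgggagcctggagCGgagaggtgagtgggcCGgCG
H1f8: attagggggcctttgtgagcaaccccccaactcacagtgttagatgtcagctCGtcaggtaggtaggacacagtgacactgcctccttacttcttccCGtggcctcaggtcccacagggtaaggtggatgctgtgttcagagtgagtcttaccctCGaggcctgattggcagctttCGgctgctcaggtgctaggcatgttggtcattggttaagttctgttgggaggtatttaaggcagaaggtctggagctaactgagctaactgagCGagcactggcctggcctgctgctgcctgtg
Cdkn1b: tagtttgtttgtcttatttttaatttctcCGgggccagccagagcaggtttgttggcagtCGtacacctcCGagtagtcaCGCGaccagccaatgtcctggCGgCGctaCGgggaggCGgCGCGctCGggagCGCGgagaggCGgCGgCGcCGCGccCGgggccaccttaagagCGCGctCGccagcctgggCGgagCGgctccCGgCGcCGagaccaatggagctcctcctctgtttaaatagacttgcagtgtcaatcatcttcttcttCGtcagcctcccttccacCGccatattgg
Rbbp4: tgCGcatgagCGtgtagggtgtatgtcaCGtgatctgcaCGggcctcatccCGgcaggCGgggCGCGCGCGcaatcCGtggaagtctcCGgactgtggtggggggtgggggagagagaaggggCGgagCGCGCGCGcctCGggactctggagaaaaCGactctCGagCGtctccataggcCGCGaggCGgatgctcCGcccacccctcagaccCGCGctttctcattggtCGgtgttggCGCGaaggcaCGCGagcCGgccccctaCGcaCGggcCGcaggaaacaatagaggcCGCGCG
CG-rich and CG-poor promoters stood on either side of the kept and lost calls: Emx1 kept the mark and Ddx4 lost it with nearly the same number of CG.

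**Figure D1:**
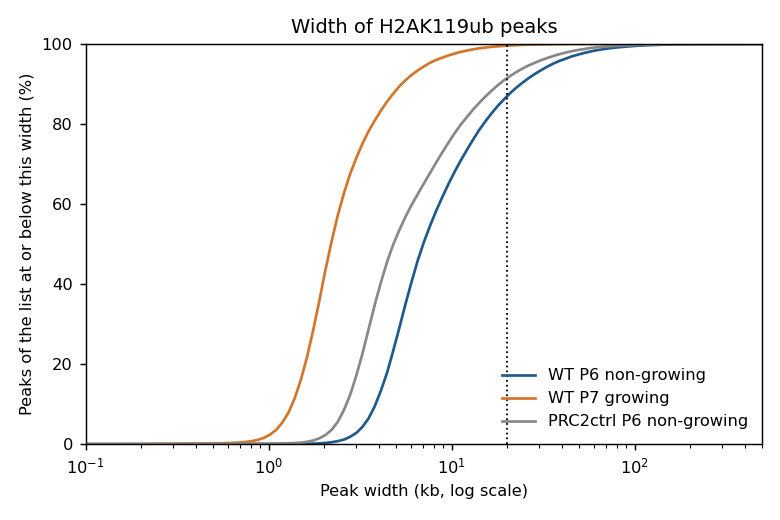
Cumulative share of peaks (%) at or below each width (kb, log scale) in the WT P6, WT P7 and PRC2ctrl P6 lists of H2AK119ub; the dotted line marks 20 kb. The P7 curve lies to the left of both P6 curves, with 0.413% of its peaks at 20 kb or wider against 13.1% in WT P6 and 8.57% in PRC2ctrl P6.

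P7 peaks were narrower than P6 peaks. Peaks of at least 20 kb, called wide domains here, numbered 8056 at P6 and made up 44.0% of the covered length; at P7 there were 334, with 3.89% of the length. Peaks under 5 kb were 26.3% of the P6 list and 88.6% of the P7 list. The median width was 7.00 kb at P6 and 2.19 kb at P7. In the PRC2ctrl P6 list it was 4.81 kb, between the WT stages, and the covered lengths of PRC2ctrl P6, WT P6 and WT P7 were 497.9, 727.6 and 243.7 Mb. H3K27me3 moved the other way over the same days, from a median of 4.34 kb and 3842 wide peaks at P6 to 5.88 kb and 6522 at P7. The plot of peak widths shows the whole distributions.

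Most wide P6 domains were represented at P7 by several narrow peaks. Of the 8056 domains, 577 (7.16%; 6.61 to 7.75%) had no P7 peak and 2248 (27.9%; 26.9 to 28.9%) were covered over less than 25% of their length, called shrunk. A further 4672 (58.0%) were covered over 25 to 75%, called partly kept, and 559 (6.94%) over 75% or more, called kept. The median domain was covered over 35.5% of its length (quartiles 17.2 and 55.1%) and held 4 P7 peaks. In 944 domains there was 1 P7 peak, in 4482 there were 2 to 5 and in 2053 more than 5, up to 55. Against the PRC2ctrl list, 833 domains of the 4844 shrank, and the median share covered was 49.1%.

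What was left of a domain was not spread evenly over it. P7 peaks covered 42.2% of all bases of the wide domains. The P6 highest point of the domain lay in a P7 peak in 70.4% of the domains, and in 48.8, 86.2 and 97.1% of the shrunk, partly kept and kept ones. Of 3916 gene starts inside wide domains, 70.9% lay in a P7 peak, against 44.7% of 4503 3′ ends of genes. With each domain cut into 5 equal parts, the middle part was covered over 46.1% and the outer parts over 36.9 and 37.3%. The remaining P7 peaks had a median width of 2.07 kb in shrunk, 2.65 kb in partly kept and 4.83 kb in kept domains.

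The class of a domain went with its position and with H3K27me3. Domains that touched a gene end made up 32.6% of the lost, 39.0% of the shrunk, 59.1% of the partly kept and 79.1% of the kept ones. H3K27me3 at P7 covered 30.8, 60.2, 83.1 and 93.7% of the length of these classes in the same order. At P6 it had already covered 33.0, 45.9, 64.9 and 80.5%. The highest signal of the domains at P6 followed the same order, with median percentiles of 62.2, 78.1, 88.8 and 94.6, and so did the median width, from 24.1 kb in lost to 41.6 kb in kept domains. Width, signal, gene ends and H3K27me3 move together here, and their separate parts were not tested.

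The 5 widest domains held between them several developmental genes. The widest P6 peak, 396.0 kb on chromosome 16 (92467035 to 92863077), spanned Clic6, a chloride channel gene whose maternal copy is silenced through H3K27me3 in the embryo, and Runx1, a transcription factor of blood formation. At P7 it was represented by 55 peaks that covered 47.9% of it, the widest being 9.73 kb. The next, 343.8 kb on chromosome 8 (121048638 to 121392435), held the forkhead genes Foxf1, Foxc2 and Foxl1 and was covered over 77.9%. The domain at Prdm16 on chromosome 4 (288.6 kb), a gene of brown fat and stem cell fate, was covered over 81.8%, and that at Alx4 on chromosome 2 (285.6 kb), a homeobox gene, over 75.9%. The domain at Zmiz1 and Ppif on chromosome 14 (292.1 kb) was covered over 53.8%. All 5 of the widest were thus broken up, and each was covered over 93.2 to 97.1% of its length in PRC2ctrl P6 oocytes.

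Other wide domains had no P7 peak at all. Those with the highest P6 signal were 21.9 kb inside Kcnq1, an imprinted potassium channel gene (chromosome 7, 143370406 to 143392286), 22.9 kb inside Slco3a1, a transporter gene (chromosome 7, 74535909 to 74558800), and 39.1 kb on chromosome 16, 65.8 kb from Ets2, the nearest gene. They also held 37.9 kb on chromosome 15, 207.1 kb from Myc, and 24.5 kb over Tmem140, Cyren and Wdr91 on chromosome 6. All 5 were marked over 62.7 to 99.4% of their length in PRC2ctrl P6 oocytes and over 74.3 to 100% at P1. H3K27me3 at P7 covered 34.8% of the Kcnq1 domain and none of the one near Ets2, but 80.1% of the one near Myc.

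Among the shrunk domains, those with the highest P6 signal were reduced to 1 to 4 narrow peaks that were themselves high in the P7 list. A 23.3 kb domain over 1 end of Stx18, a gene of membrane traffic (chromosome 5, 38013747 to 38037025) was left with 1 peak of 3.12 kb at the 99.98th percentile. A 28.0 kb domain in Dlgap2, a synaptic scaffold gene, was left with 1 peak of 0.975 kb at the 99.3rd percentile. At the opposite end were domains that P7 peaks covered almost whole. Muc5ac, a mucin gene on chromosome 7 (141798958 to 141825318), was covered over 99.8% by 1 peak, and Zfp362 on chromosome 4 over 98.4%. Bahcc1 on chromosome 11 was covered over 99.1% and carried no H3K27me3 at either stage. In PRC2ctrl P6 oocytes 23.5% of the Bahcc1 domain was marked, so its WT P6 width did not recur in the other P6 list.

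The 334 wide peaks that remained in the P7 list sat almost without exception on old domains. Of them, 330 overlapped a wide P6 domain, 333 a H3K27me3 peak at P7 and 225 a gene end. Of all 80777 P7 peaks, 35242 overlapped a wide P6 domain. Wider peaks offer more bases for an overlap: 92.8% of the wide P6 domains touched H3K27me3 at P7 and 53.0% a gene end. Of P7 peaks of any width on a P6 peak, 86.0% touched H3K27me3 at P7 and 16.5% a gene end. The widest of the 334 P7 peaks were picked after their values were seen. They were 149.0 kb on chromosome 6 beside Atg7 and 91.0 kb at Gas8 on chromosome 8, followed by 62.4 kb at Wnt7b, a secreted Wnt ligand, 59.8 kb on X, 130.5 kb from Asmt, and 54.8 kb at Glis1, a zinc finger factor. By highest signal the peaks beside Atg7 and at Gas8 both stood at the 99.8th percentile, and that at Wnt7b at the 97.8th. The E18.5, P1, PRC2ctrl P6 and H3K27me3 lists covered 96.6 to 100% of the peaks beside Atg7 and at Gas8. Whether repeated sequence adds to their signal was not tested.

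**Figure D2:**
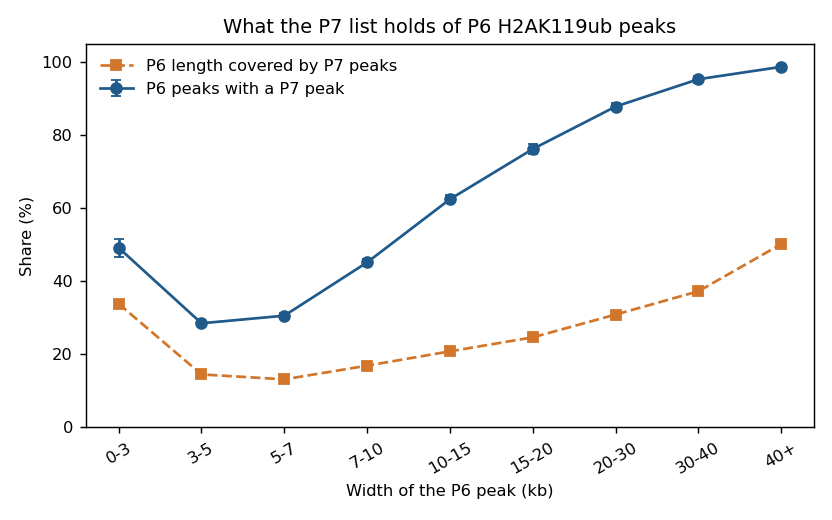
Share (%) of WT P6 peaks touched by a WT P7 peak (circles, with exact 95% intervals) and share of their summed length covered by P7 peaks (squares), by width of the P6 peak in kb. From 3 kb upward the share touched climbs from 28.5 to 98.7%, while the length covered stays at or below 50.2%.

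Whether a P6 peak was found again at P7 went with its width and its signal. Of all P6 peaks, 48.6% had a P7 peak. The share was 28.5% for peaks of 3 to 5 kb, 30.6% for 5 to 7 kb, 62.5% for 10 to 15 kb, 87.9% for 20 to 30 kb and 98.7% for 40 kb or wider. A wider peak offers more bases for an overlap, and the plot by width shows that the length covered went up less, from 14.5% at 3 to 5 kb to 50.2% at 40 kb or wider. Peaks under 3 kb went against the order, with 49.2% found, and had a higher mean signal per base than peaks of 3 to 5 kb (median 9.34 against 6.19). At nearly constant width the signal still separated the peaks. Among P6 peaks of 5 to 7 kb, 13.2% of the 3624 with the lowest mean signal were found and 58.0% of the 3625 with the highest. From percentiles of highest signal of up to 10 to those over 90, the share found went from 14.1 to 95.3%. For comparison, 70.2% of WT P6 peaks were found in PRC2ctrl P6, 77.7% at E18.5 and 74.5% at P1.

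In bases, both lists shared 209.4 Mb, which was 28.8% of the P6 length and 85.9% of the P7 length. The P6 list alone held 518.2 Mb and the P7 list alone 34.4 Mb. H3K27me3 at P7 covered 87.6% of the shared bases, 55.1% of those of P6 alone and 40.2% of those of P7 alone. The PRC2ctrl P6 list covered 84.0, 49.5 and 22.0%. Bases near a gene end, within the 1 kb windows, were 8.60, 4.17 and 3.69%.

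At genes, 14821 of 21887 protein-coding genes were marked at P6 (67.7%) and 9988 at P7 (45.6%). The mark was kept by 9558 genes (43.7% of all; 64.5% of those marked at P6), lost by 5263 (24.0% of all; 35.5% of those marked at P6) and gained by 430 (1.96% of all; 6.09% of those unmarked at P6). Between the WT and PRC2ctrl lists of the same stage, 2606 genes were marked in WT alone and 544 in PRC2ctrl alone. With PRC2ctrl as the P6 list, 9048 genes kept, 3711 lost and 940 gained the mark. Of the 12215 genes marked in both P6 lists, 8942 were marked at P7 and 3273 were not, and 324 genes marked at P7 were in neither. When the P6 list was cut to the covered length of the P7 list, by total signal, the balance turned round to 868 lost and 5072 gained. Cut by highest signal it was 1160 lost and 3637 gained. The cut P6 list marked 5784 genes by total signal and 7511 by highest signal, against 9988 at P7, so a net gain followed from the cut itself. The direction of change over all genes is therefore that of the lists as deposited, and the cut lists cannot decide it.

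Genes that stayed marked also lost length. Within 5 kb of their ends the median covered length of kept genes was 13.8 kb at P6 and 6.36 kb at P7, and lost genes had a median of 8.52 kb at P6. Over all P6-marked genes the median share of covered length left at P7 was 34.6%. It was 88.9% for the Hox clusters and 82.6% for developmental transcription factors, and 0% for oocyte growth genes and for early zygotic genes.

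**Figure D3:**
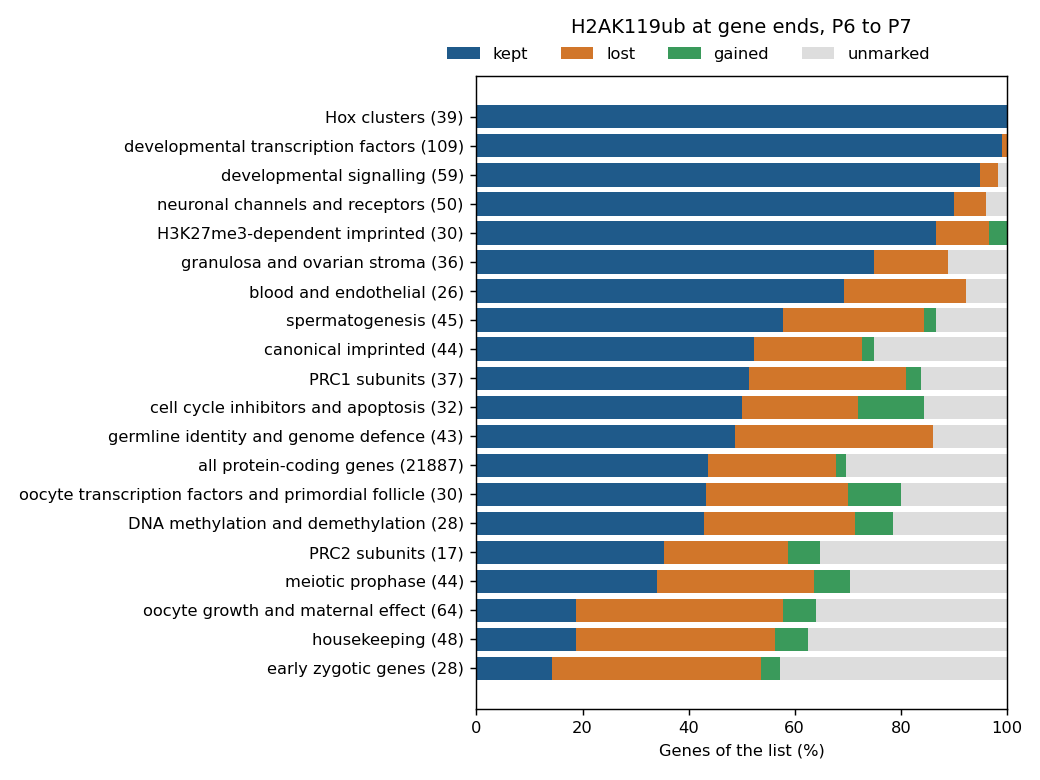
Share of genes (%) of each list that kept, lost or gained H2AK119ub from P6 to P7 or were marked at neither stage, with the number of genes in parentheses; lists are ordered by the share kept. The Hox clusters and developmental transcription factors stand at the top with 39 of 39 and 108 of 109 kept, and oocyte growth, housekeeping and early zygotic genes at the bottom.

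Regulators of the body plan kept the mark. All 39 Hox genes, which pattern the body axis, and 108 of 109 developmental transcription factors carried it at P6 and at P7, as did 56 of 58 P6-marked genes of developmental signalling. Of all P6-marked genes 64.5% kept it. Hox genes share domains, as Hoxa3 and Hoxa10 do at P6, so they are not independent observations. Emx1 was covered over all 20.0 kb of its window at P6 and again at P7. Its single 115.0 kb P6 domain (chromosome 6, 85131141 to 85246123) stood at the 99.5th percentile of the P6 list, and the 13.1 kb P7 peak over its start at the 98.1st of the P7 list. Tbx2, a T-box factor of heart and limb, had 19.3 kb at both stages. At Hoxa10 the covered length was 19.66 kb at P6, within a 106.2 kb domain, and 19.18 kb at P7. The highest P7 peak within 1 kb of its ends, 31.3 kb wide, stopped just short of the gene (52231158 against 52231197). Other P7 peaks therefore made up most of its P7 cover. Hoxb6 had 18.8 and 18.2 kb. These genes are named for the most P7 cover in their lists, which favours small losses. Of the Hox genes 33 had 75% or more of their P6 cover left and 6 had 25 to 75%, and of the developmental factors 70 and 37. Hoxd1 kept 3.81 of 8.09 kb, Hoxb2 4.89 of 8.97 kb, and Gsc, a homeobox gene of the gastrula organizer, 3.83 of 12.0 kb.

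Among the signalling ligands Wnt11 had 20.0 kb at P6 and 19.6 kb at P7, Bmp7 20.0 and 19.0 kb, and Wnt10a 20.0 and 18.48 kb, the 3 with the most P7 cover. Of the 58 P6-marked signalling genes, 27 had 75% or more of their cover left, 26 had 25 to 75% and 5 less. The ligand gene Bmp6 kept 2.81 of 18.52 kb, and Dkk1, a Wnt inhibitor, 2.50 of 12.4 kb. A few genes of these lists lost the mark. Gata1, the X-linked master factor of red cell formation, lay in a 96.7 kb domain at P6 (X, 7891067 to 7987731; 98.9th percentile), with 20.0 kb covered, and had no P7 peak within 5 kb. Its H3K27me3 was present at P6 and absent at P7. Jag1, a Notch ligand, had 6.29 kb at P6 and 0 at P7, and Wnt8a, a Wnt ligand of gastrulation, 12.9 and 1.07 kb. All 3 exceptions were marked in PRC2ctrl P6 oocytes too. Cut to equal length by highest signal, the P6 list still marked 109 developmental transcription factors, of which 108 stayed marked. Cut by total signal it marked 92, of which 91 stayed marked. Over all genes 6351 of 7511 stayed marked with the cut by highest signal and 4916 of 5784 with that by total signal.

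Genes of the growing oocyte fared differently. Of 64 genes of oocyte growth and maternal effect, 37 were marked at P6 and 16 at P7: 12 kept, 25 lost and 4 gained the mark. The 12 of 37 are 32.4%, beside 64.5% of all P6-marked genes. The low share was not particular to this list: 33.3% of P6-marked housekeeping genes and 26.7% of early zygotic genes kept the mark. Of the 28 oocyte growth genes marked in both P6 lists, 10 stayed marked and 18 did not. Over all genes, 8942 of the 12215 marked in both P6 lists stayed marked. Cut to equal length, 5 of 12 oocyte growth genes stayed marked by total signal and 7 of 15 by highest signal, but 11 and 9 were then gained. Over all genes 4916 of 5784 and 6351 of 7511 then stayed marked, and 5072 and 3637 were gained. No net loss is seen there, but the cut leaves fewer genes marked at P6 and so cannot decide on one. H1f8 lay in a 120.9 kb domain at P6, with 15.3 kb covered near its ends, and had no P7 peak within 5 kb. Dnmt3l, the cofactor of de novo DNA methylation in oocytes, had 20.0 kb at P6 and 1.83 kb at P7. At Dnmt3a, the de novo methyltransferase itself, 18.0 kb at P6 stood beside 3.802 kb at P7, with no P7 peak within 1 kb of the outermost ends. Yet 2 of its 3 listed promoters lay in a P7 peak, as did the listed promoter of Tet3, a maternal 5-methylcytosine dioxygenase. Of 4224 lost genes with a listed promoter, 158 (3.74%) had one in a P7 peak. By the rule no promoter at an annotated end of a lost gene can lie in one, and how many lost genes have an internal promoter was not counted.

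Other members were chosen by role after their values were seen. Zp1, an egg coat gene, had 15.9 kb at P6 and 0 at P7. The oocyte growth factors Gdf9 (8.85 kb at P6) and Bmp15 (4.44 kb) also had 0 at P7. Npm2, a maternal histone chaperone, kept 3.87 of 13.8 kb, and Zar1, a maternal RNA-binding factor, 2.40 of 9.45 kb. Kit, the receptor for the growth signal from granulosa cells, kept 1.60 of 9.15 kb.

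Dppa3, a maternal factor that protects the egg genome from methylation, stood apart from its list by the rank of its peak. Within 5 kb of its ends it kept 7.22 of 12.7 kb. Its locus lay in a peak of 19.9 kb at P6 (chromosome 6, 122614253 to 122634117; 99.6th percentile) and of 13.9 kb at P7 (122614789 to 122628642; 99.98th percentile), the highest P7 peak near an end of any gene that kept the mark. The highest point of the P7 peak lay 10.5 kb from the near end of the gene, and that of P6 10.9 kb. It lay between 10.5 and 10.8 kb away in the E18.5, P1 and PRC2ctrl lists as well. In the PRC2cKO list the peak within 1 kb of the gene ends was 3.17 kb wide, at the 61.4th percentile, with its highest point inside the gene. PRC2cKO peaks farther from the gene were not examined, so a separate peak at the distant high point is neither shown nor excluded. H3K27me3 had no peak within 1 kb of this gene at P6 and a 14.3 kb peak at the 99.9th percentile at P7. The highest point of that H3K27me3 peak also lay 10.5 kb from the near end of the gene.

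Primordial follicle genes lay near the genome-wide share. Of 30 oocyte transcription factors and primordial follicle genes, 21 were marked at P6; 13 (61.9%, beside 64.5% of all genes) kept, 8 lost and 3 gained the mark. The transcription factors Figla, Lhx8, Sohlh1 and Sohlh2, which drive oocyte differentiation, kept it, with 3.23 of 7.18 kb left at Figla and 7.68 of 10.9 kb at Lhx8. Nobox, of the same group, had 7.10 kb at P6 and 0 at P7. In the PI3K and mTOR pathway, whose activity wakes primordial follicles, the kinase gene Akt1 kept 11.7 of 17.8 kb, and the brakes Stk11, Tsc2 and Foxo3 kept the mark as well. Tsc1, the partner of Tsc2, had 10.0 kb at P6 and 0 at P7, Rptor lost the mark, and Mtor gained a 1.67 kb peak at the 5.38th percentile. Cdkn1b gained a 3.40 kb peak over its start (134917596 to 134920996; 74.1st percentile). Cdkn1b was marked in PRC2ctrl P6, E18.5 and P1 oocytes, and 7.16 kb within 5 kb of its ends was covered at WT P6, so its gain is a shift within 5 kb and not a first appearance.

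The shares of meiotic and germline genes lay below the 64.5% of all P6-marked genes, but nearer to it than the 32.4% of oocyte growth genes. Of 28 P6-marked meiotic prophase genes, 15 (53.6%) kept and 13 lost the mark, and 3 others gained it. Stra8 kept 12.2 of 18.6 kb and Spo11, which makes the meiotic DNA breaks, 11.7 of 13.3 kb. Dmc1, a strand exchange recombinase, had 8.25 kb at P6 and 0 at P7, but was unmarked in the E18.5, P1 and PRC2ctrl lists and marked in PRC2cKO P6, with 2.95 kb. Of 37 P6-marked genes of germline identity and genome defence, 21 (56.8%) kept and 16 lost the mark and none was gained. The pluripotency genes Nanog, Pou5f1 and Sox2 kept it. Sox2 had 6.49 kb at P6 and 7.45 kb at P7. Ddx4 lost a 6.59 kb P6 peak over its promoter, and the piRNA pathway gene Piwil2, unmarked in PRC2ctrl P6, lost 10.0 kb.

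Genes of the Polycomb machinery were themselves marked in part. Of 37 genes of PRC1, its partners and its deubiquitinases, 30 were marked at P6. Of these, 19 (63.3%) kept the mark, near the 64.5% of all P6-marked genes. The other 11 lost it, and 1 unmarked gene gained it. Bcor, a corepressor of variant PRC1, had 15.6 kb at P6 and 9.40 kb at P7. Ring1 kept 5.698 of 8.565 kb and Rnf2 lost 4.54 kb, the whole of its P6 cover. Bap1 lost 8.21 kb. Among 17 PRC2 genes, 10 were marked at P6, and 6 of these (60%) kept the mark. Epop kept 10.5 of 11.2 kb, at the 95.6th percentile of the P6 list and the 99.4th of the P7 list. Eed lost 5.75 kb, Ezh2 and Suz12 were marked at neither stage, and Rbbp4 gained a 2.31 kb peak at the 17.9th percentile. At Rbbp4 none of the E18.5, P1, PRC2ctrl and PRC2cKO lists had a peak within 1 kb of the ends.

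Imprinted genes are of more than 1 kind, and 64.5% of all P6-marked genes kept the mark. Of 29 P6-marked genes with H3K27me3-dependent imprinting, whose maternal copy is silenced without DNA methylation, 26 (89.7%) kept it; Prox2, Mbnl2 and Myoz2 lost it and Bbx gained it. Six3, a homeobox gene, kept 18.49 of 20.0 kb and Chst1, a sulfotransferase gene, 18.2 of 20.0 kb. Slc38a4, an amino acid transporter gene of the placenta, kept 2.06 of 13.7 kb. Gab1 and Sfmbt2 were covered further at P7 than at P6, over 5.80 against 3.58 kb and 8.27 against 6.18 kb. Of 32 P6-marked canonical imprinted genes, 23 (71.9%) kept and 9 lost the mark, near the share of all genes. Dlk1 and Cdkn1c, a Notch-like ligand and a cell cycle inhibitor, kept 17.8 of 20.0 and 10.9 of 12.7 kb, whereas Mest had 10.0 kb at P6 and 0 at P7. Lists share members: Epop and Cdkn1c each stand in more than 1.

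Of 23 P6-marked cell cycle inhibitors and apoptosis genes, 16 (69.6%) kept and 7 lost the mark, near the 64.5% kept of all genes. Of the 9 unmarked at P6, 4 gained it (Apaf1, Cdkn1b, Cdkn2b and Rb1), beside 6.09% of all unmarked genes. Apaf1, the scaffold of the apoptosome, gained a 1.75 kb peak at the 80.7th percentile and Rb1, the retinoblastoma gene, a 3.58 kb peak at the 74.1st. Apaf1 and Rb1 were unmarked in both P6 lists. Cdkn2a, which shares a locus with Cdkn2b, had 11.7 kb at P6 and 11.9 kb at P7. Bak1, a pore-forming death effector, had 16.9 kb at P6 and 0 at P7.

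Lists of genes of other cell types are read beside the 64.5% kept of all P6-marked genes. Of 48 P6-marked neuronal channel and receptor genes 45 (93.8%) kept it and of 32 granulosa and stroma genes 27 (84.4%). Of 24 blood and endothelial genes 18 (75%) and of 38 spermatogenesis genes 26 (68.4%) did, nearer the share of all genes. Grik3, a glutamate receptor gene, had 20.0 kb at both stages, and Pdgfrb, a stromal growth factor receptor gene, 20.0 and 18.49 kb. Both are named for the most P7 cover in their lists. The median share of P6 cover left was 49.7% for the neuronal genes and 59.6% for the granulosa and stroma genes. In these lists 10 of 48 and 8 of 32 had 75% or more left. Nr5a2, a nuclear receptor of granulosa cells, lay in a 30.2 kb domain at the 97.8th percentile and had no P7 peak within 5 kb, but it was marked at E18.5 and unmarked at P1 and in PRC2ctrl. Peaks of a repressive mark measure no RNA, so these lists neither show nor exclude other cells in the samples. At the bottom, 4 of 15 P6-marked early zygotic genes and 9 of 27 housekeeping genes kept the mark. Many early zygotic genes lie in multicopy families (Tdpoz, Usp17l, Tcstv, Obox), where reads may be shared among copies, and their calls are uncertain. Duxf3, a multicopy gene of zygotic genome activation, had 13.6 kb at both stages. Rpl14, Rplp0 and Rplp1, which encode ribosomal proteins, gained peaks of 1.71 to 2.41 kb. Rpl14 and Rplp1 were marked in PRC2ctrl P6, and within 5 kb of its ends Rplp1 had 2.85 kb at WT P6 and 1.71 kb at P7.

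**Figure D4:**
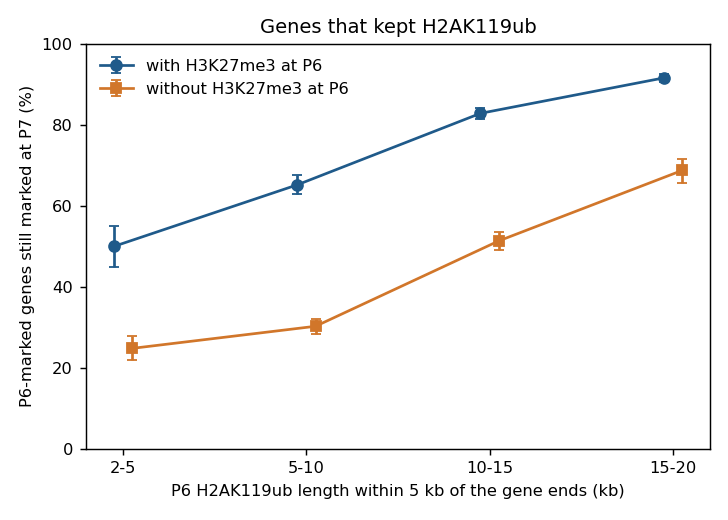
Share (%) of genes marked by H2AK119ub at P6 that were still marked at P7, by the P6 covered length within 5 kb of the gene ends (kb), for genes with H3K27me3 at P6 (circles) and without it (squares); bars are exact 95% intervals. In each of the 4 bins the share is higher with H3K27me3, up to 91.6 against 68.8% at 15 to 20 kb.

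The genes that kept H2AK119ub and those that lost it differed in H3K27me3. Of kept genes 71.7% were marked by H3K27me3 at P6 and 80.3% at P7, and of lost genes 29.0 and 32.5%. In the other direction, 81.8% (80.9 to 82.6%) of the 8385 genes that carried both marks at P6 kept H2AK119ub, and 42.0% (40.8 to 43.2%) of the 6436 genes with H2AK119ub alone. The gap held at like P6 covered length, as the plot by covered length shows, with 65.2 against 30.3% at 5 to 10 kb and 82.9 against 51.4% at 10 to 15 kb. With PRC2ctrl as the P6 list the shares were 85.0 and 48.5%. With the WT P6 list cut to equal length they were 92.7 and 62.5% by total signal and 91.5 and 63.1% by highest signal. H3K27me3 was called in other libraries with their own depth, which is unknown. Genes without H3K27me3 kept H2AK119ub as well: 1605 kept genes (16.8%) carried H3K27me3 at neither stage, Akt1, Stk11 and Gapdh among them.

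Promoters were also compared by their CG content. Over the promoters that kept the mark the median number of CG per 300 bases was 15, over those that lost it 9, over those that gained it 20 and over all 13. Of promoters marked at P6, 42.8% kept the mark with 0 to 3 CG, 56.3% with 4 to 7, 67.5% with 8 to 14, 67.6% with 15 to 21 and 66.1% with 22 or more. Split by H3K27me3 at P6, the share went from 53.7 to 91.7% across these bins with it and from 25.0 to 46.7% without it. Promoters that gained the mark were CG-rich, with at least 15 CG in 68.0% against 46.8% of all promoters, as the printed Cdkn1b and Rbbp4 sequences show. Of the gained promoters 21.1% touched H3K27me3 at P7, and of the kept ones 80.4%.

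New P7 peaks, those with no P6 peak at any base, numbered 15623, which was 19.3% of the P7 list (19.07 to 19.6%). They were small, with a median width of 1.76 kb against 2.37 kb for P7 peaks on a P6 peak, and 66.9% of them lay between genes, against 47.7%, and 5.23% at a gene end, against 16.5%. Their distance to the nearest P6 peak had a median of 9.54 kb; 2213 lay within 1 kb, 5737 farther and up to 10 kb, and 7673 beyond 10 kb. By highest signal their median percentile, 51.7, was that of the other P7 peaks, and 13.6% stood above the 90th percentile, against 9.30% of the others. By total signal they ranked lower, with a median percentile of 33.9 against 54.4. H3K27me3 at P7 touched 38.4% of them and 86.0% of the others.

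New peaks were found in the other lists at lower shares than the rest of the P7 peaks. Of them 33.5% touched an E18.5 peak, 27.6% a P1 peak and 21.3% a PRC2ctrl P6 peak, against 91.2, 87.0 and 84.0% of P7 peaks on a P6 peak. Of the new peaks 7032 (45.0%) touched none of the other H2AK119ub lists, and of these 5042 also touched no H3K27me3 peak at P7. The new peak with the highest signal, 0.695 kb in Nkap on X (37129999 to 37130693; 99.9th percentile), was in none of the 6 other lists. The next, 0.878 kb in Nr3c2, the mineralocorticoid receptor gene, was covered at P1 and over 61.8% in PRC2ctrl. The one 6.15 kb from Cyp2a5 on chromosome 7 was covered by H3K27me3 at both stages. The 10 highest peaks of either list were each present in all 7 other lists. Their highest signal reached 8395 at P6 and 4743 at P7, beside list medians of 18 and 7. Regions prone to artefacts were not filtered out here, and whether these peaks reflect the mark was not tested.

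New peaks were spread over the genome, and the richest 1-Mb windows held a small part of them. The window with most, chromosome 12 from 23000001, held 37 of its 68 P7 peaks as new, and 3 more of the 8 richest windows lay beside it, between 19000001 and 23000000, over predicted genes without a given role. The window on chromosome 4 from 42000001 held 36 new peaks among 65, over the chemokine copies Ccl21a, Ccl21b and Ccl27b. That on chromosome 7 from 15000001 held 33 among 52, over the Obox homeobox cluster, whose members act at zygotic genome activation. These windows hold gene copies of high similarity, so the assignment of reads to one of them is uncertain.

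**Figure D5:**
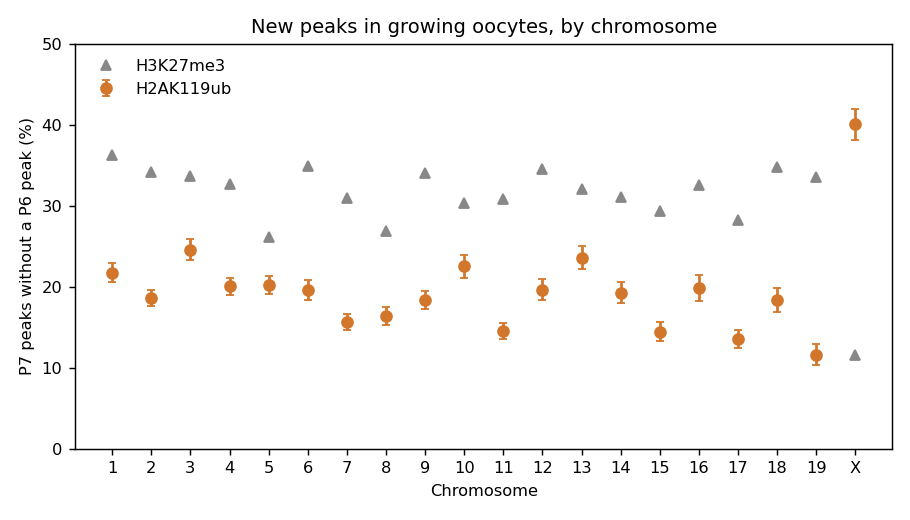
Share (%) of P7 peaks with no P6 peak on each chromosome, for H2AK119ub (circles, exact 95% intervals) and H3K27me3 (triangles) in WT oocytes. X has the highest share of the chromosomes for H2AK119ub, 40.1%, and the lowest for H3K27me3, 11.6%.

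The X chromosome had the largest share of new H2AK119ub peaks. On X 40.1% (38.2 to 42.0%) of 2586 P7 peaks were new, against 11.6% on chromosome 19 to 24.6% on chromosome 3 among the autosomes. For H3K27me3 the order was reversed, with 11.6% new on X and 26.1 to 36.3% on the autosomes. With PRC2ctrl as the P6 list, X had 41.2% and the autosomes 13.1 to 34.4%. With the P6 list cut to equal length X no longer stood apart, at 79.2% (autosomes 51.9 to 82.0%) by total signal and 69.5% (49.1 to 77.6%) by highest signal. The new X peaks lay between genes in 79.5% (autosomes 66.0%), and 22.3% of them stood above the 90th percentile of the P7 list (autosomes 13.0%). P6 peaks of X were found at P7 in 37.4%, below the autosomes' 39.1 to 59.3%. Of P6-marked X genes 55.7% (51.7 to 59.7%) kept the mark, against 64.9% on the autosomes, and 32 of 352 unmarked X genes (9.09%; 6.30 to 12.6%) gained it, against 5.93%.

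Gained genes had low and narrow peaks as a rule. The median percentile of the P7 peak was 35.2 at gained genes and 74.1 at kept genes. Of the 430, 60.5% were marked at E18.5, 30.2% at P1 and 24.7% in PRC2ctrl P6; 316 (73.5%) were marked in at least 1 of the other H2AK119ub lists and 114 in none. A P6 peak lay within 5 kb of an end in 166 (38.6%). Among those with the highest P7 rank were Pld5 (6.65 kb, 98.8th percentile), the odorant receptor gene Olfr270 (0.312 kb, 98.2nd) and Ptgs2, the inducible cyclooxygenase gene (1.24 kb, 98.1st). Pld5 and Ptgs2 were marked in PRC2ctrl P6, so their absence at WT P6 did not recur in the other P6 list; Olfr270 was marked in none of the other lists. In the lists of genes, those unmarked in both P6 lists and marked at P7 were Ctcf, Kdm5b, Plcz1, Zfp445, Eif4e, Mtor, Prdm9, Smc1b, Mga, Rbbp4, Mkrn3, Apaf1, Rb1, Tdpoz5, Tdg and Rplp0.

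Earlier stages separated kept from lost genes as well. Of kept genes 97.8% were marked at E18.5, 94.4% at P1, 93.6% in PRC2ctrl P6 and 91.6% in PRC2cKO P6. Of lost genes the shares were 81.3, 65.1, 62.2 and 55.1%. The WT P6 list is the longest of the 6 H2AK119ub lists used here, and the P7 list the shortest.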

How the data were processed

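CUT&Tag peak lists of mouse oocytes were analysed, 1 per group of 2 samples, as deposited by the authors without a header. The submitters' processing notes name the builds GRCm38, mm10 and dm6 and the tools Bowtie2, SAMtools, deepTools, Picard 3.0.0 and Trim Galore 0.6.10. Not given in the sources used here are peak caller, threshold, any scaling by the spike-in and how samples were combined. Judged from the values, the deposited signal columns hold the signal summed over each peak and its highest value. The highest value is a score of the authors on a scale that is not stated. Both served to rank or filter peaks within a list. Read depth is not known. Nothing in the labels says whether the 2 samples of a group came from separate animals.

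Peaks on chromosomes 1 to 19 and X of 8 lists were used. Intervals were intersected in Python 3.11.15 with numpy 2.4.6 and pandas 2.3.3, shares got exact intervals from scipy 1.17.1, and the code was checked on simulated intervals. Genes came from RefSeq, GRCm38.p6. A window around the start was planned, but strand was known for 79.9% of genes, under the planned minimum of 80%, so both ends were used. Of 806 listed names in 19 lists, 776 were in the annotation. Members, lists and rules were chosen with earlier results of these data known. Genes were named by rule: in each list up to 3 kept with most P7 cover, 3 lost with the highest P6 rank and 3 gained with the highest P7 rank, the same over all genes, and regions by width, rank or share kept. Others are named as chosen by role. Some genes that these rules name are not reported here. Alternatives cut, merged or replaced the P6 list, or changed widths and windows.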

Additional observations from a re-analysis of the deposited data

How the results depend on the processing

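No paired analysis was possible because each group has 1 list, and for the same reason no sample could be left out. The alternative of windows around both gene ends is the main rule here. The share of P6 peaks with a P7 peak (48.6%) was 49.6% with the upper 50% of each list by total signal, 98.3 and 92.5% at equal covered length by total and by highest signal, 39.3% at equal number of peaks, 49.7% with peaks under 3 kb apart merged, 54.1% with PRC2ctrl as P6, 15.0% where 50% of the peak had to be covered and 49.1% without X. The share of new P7 peaks (19.3%) was 20.6 (upper 50%), 64.5 and 63.3 (equal length), 23.1 (merged), 28.1 (PRC2ctrl), 20.8 (50% covered) and 18.7% (without X). Shrunk domains (2248) numbered 873 and 700 at equal length, 833 with PRC2ctrl, and 5931 and 420 with wide domains from 10 and 40 kb. The median share covered (35.5%) was 24.5% with the upper 50%, 46.1 and 47.8% at equal length, 28.5% at equal number, 31.8% merged, 49.1% with PRC2ctrl, 23.7 and 47.8% with domains from 10 and 40 kb, and 35.7% without X. Genes that kept the mark (9558) numbered 4916 and 6351 at equal length, 5291 with 50% of the window covered and 6021 at starts alone, where fewer genes were tested. Lost genes (5263) numbered 868 and 1160 at equal length and 3249 at starts alone, and gained genes (430) 5072 and 3637 at equal length, 940 with PRC2ctrl and 127 with 50% of the window covered. Starts alone and the lists without X were added after the data were seen. Of 67 values under 14 alternatives, 27 stayed within the interval of the value, or for counts within 1.5 times it. The median share covered has no interval and counted as unchanged only if identical, which no alternative gave. At equal length the P6 list is cut to its 5016 or 8701 highest peaks, so most P7 peaks at weaker P6 peaks count as new by construction. Without counts of reads, a region called at P6 alone can have been below the threshold at P7.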
